A study of Rattus norvegicus with 15 samples.

Results

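Messenger RNA of 10 marker genes of Kupffer cells and macrophages was followed in rat liver: Clec4f, Vsig4, Marco, Cd163, Cd68, Csf1r, C1qa, C1qb, Cd74 and Cd14. The genes were taken by name, as markers of these cells, and each was represented by its brightest probe among 36244 measured features, of which 20136 could be tested. All 15 arrays were used, 1 for each female Wistar Crl:WI rat of 2-3 months. Of these, 8 animals, numbered fipronil 1 to 8, were given fipronil, a phenylpyrazole insecticide, by mouth at 3 mg/kg each day for 14 days. The other 7 animals, numbered vehicle 1 to 7, were given the carrier alone, methylcellulose with Tween 80 in water. RNA came from fragments of the large liver lobe, so each value averages all cell types of the tissue. The arrays sat on 4 slides, each with fipronil and vehicle rats.

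Kupffer cells are the resident macrophages of the liver. They line the sinusoids, where they take up particles, aged red cells and complement-coated microbes and sense bacterial lipopolysaccharide arriving from the gut. Their survival depends on signalling through the receptor encoded by Csf1r, and the transcription factor PU.1, encoded by Spi1, is needed for macrophage development. Several of the 10 genes are also active in other cells: Cd74 in B cells and dendritic cells, Csf1r and Cd14 in monocytes, and Cd14 in hepatocytes after an inflammatory stimulus.

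The probes lay at the following places in rat build rn4, per the file headers, and the exon or untranslated region under them is not given here. The Clec4f probe lay at chr4:117839920-117839979, the Cd163 probe at chr4:160407221-160407922, the C1qa probe at chr5:155662578-155662637 and the C1qb probe at chr5:155647536-155647595. The Cd68 probe lay at chr10:56481762-56481821, the Cd14 probe at chr18:29374990-29375049, the Cd74 probe at chr18:56765468-56765527, the Csf1r probe at chr18:57105231-57105932 and the Vsig4 probe at chrX:83882671-83883157. The Marco probe was placed on unassigned sequence, chrUn:9449917-9450079. Marco and Vsig4 carried older names on the array and were matched by gene number and by transcript accession. In all, 15 probes matched the 10 genes.

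Promoters of 4 of the genes are shown because Clec4f, Cd68 and C1qb correlated strongly with each other across rats while Cd14 had a negative r with each of the 3, as described further on. With slide effects also subtracted, r of Cd14 was -0.12 with Clec4f, 0.06 with Cd68 and -0.09 with C1qb. All 10 genes matched a promoter in RefSeq's GRCr8 annotation, a window of 250 bases before the gene's start and 50 after it, written here 5′ to 3′ on the strand of the gene. Capitals mark GAGGAA, a core sequence that PU.1 is known to bind, or its reverse complement TTCCTC.
Clec4f (GRCr8 chr4:117696358-117696657, minus strand): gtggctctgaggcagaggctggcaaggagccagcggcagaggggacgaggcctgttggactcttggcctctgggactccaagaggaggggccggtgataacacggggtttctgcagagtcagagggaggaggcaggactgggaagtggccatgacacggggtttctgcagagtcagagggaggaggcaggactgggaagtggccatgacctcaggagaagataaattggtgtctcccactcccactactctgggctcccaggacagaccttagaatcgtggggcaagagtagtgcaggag
Cd68 (GRCr8 chr10:54882392-54882691, minus strand): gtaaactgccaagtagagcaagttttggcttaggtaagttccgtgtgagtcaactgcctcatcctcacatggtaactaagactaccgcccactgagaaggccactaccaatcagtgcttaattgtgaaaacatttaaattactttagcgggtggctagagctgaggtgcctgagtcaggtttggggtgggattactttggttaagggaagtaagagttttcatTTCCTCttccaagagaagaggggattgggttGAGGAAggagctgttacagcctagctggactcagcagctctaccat
C1qb (GRCr8 chr5:154407778-154408077, minus strand): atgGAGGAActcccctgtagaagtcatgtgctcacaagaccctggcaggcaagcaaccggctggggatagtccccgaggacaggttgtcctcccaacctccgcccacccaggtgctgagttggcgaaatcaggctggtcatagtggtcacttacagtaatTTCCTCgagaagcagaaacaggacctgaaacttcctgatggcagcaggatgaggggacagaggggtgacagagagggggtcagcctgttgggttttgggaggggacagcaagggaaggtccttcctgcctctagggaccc
Cd14 (GRCr8 chr18:28611109-28611408, minus strand): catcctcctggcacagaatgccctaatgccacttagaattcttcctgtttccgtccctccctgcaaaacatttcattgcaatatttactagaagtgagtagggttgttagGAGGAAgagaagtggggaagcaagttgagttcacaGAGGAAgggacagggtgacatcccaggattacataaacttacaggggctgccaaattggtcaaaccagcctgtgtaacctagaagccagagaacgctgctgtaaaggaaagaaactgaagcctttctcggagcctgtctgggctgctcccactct
GAGGAA was found on either strand in 6 of the 10 promoters and in 27.6% of all 33469 promoters of that length. The window held it 2 times each in C1qb, Cd14, Cd68 and Csf1r and 1 time each in Cd74 and Marco. The windows of Clec4f, C1qa, Cd163 and Vsig4 had none. In Cd14 the matches began at -140 and -105, and in Cd68 at -27 and 4, counted from 0 at the first base of the gene. The AP-1 motif TGANTCA was found in 1 of the 10 promoters, that of Cd68, against 7.33% of all promoters, and the NF-kappaB motif GGGANNNNCC in 5 of the 10, against 19.3%, both strands searched. These are matches of letters, and binding was not measured here.

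A value called signal below is the log2 processed intensity of a probe minus the log2 75th percentile of intensity on its array. The number of arrays limits the precision. For all 10 genes the probe used exceeded background clearly on each of the 8 fipronil and 7 vehicle arrays, and none was saturated. The fipronil arrays were brighter: their 75th percentile of intensity averaged 229.0 ± 28.4, against 187.5 ± 36.8 on the vehicle arrays (SD, n = 8 and 7, exact permutation test, two-sided p = 0.0214, adjusted over 4 measures to 0.0361). The liver label was borne out by the hepatocyte genes, all 15 of which were above background, with 6 of them saturated on all 15 arrays.

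None of the 10 genes passed limma's test between fipronil and vehicle livers at an adjusted p under 0.05 over all features. In the same fit 175 of 20136 features passed, which is 0.869% of those tested. The members' adjusted p ran between 0.135 and 0.942. At an unadjusted p under 0.05, 1 of the 10 genes, Cd14, was counted, against a background of 17.6% of all features. The groups did not separate for any of the 10 genes, whereas they did not overlap for 0.626% of all features. In all, 9 of the 10 estimates were above 0, with a median log2 difference of 0.23, against -0.03 over all features tested. Of all features tested, 55.7% had an estimate under 0. The 10 estimates are not independent, because 8 of the genes correlated strongly across rats, as described further on. In bulk liver, a change in the number of cells of a type and a change in RNA per cell cannot be told apart.

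Array brightness moved with the groups, so a fit with both cannot tell them apart. With group means subtracted, r of the members with brightness ran from 0.10 (C1qb) to 0.36 (Cd14). None passed (permutation test, adjusted p = 0.857 for each). With brightness as a covariate, the SE of Marco was 0.89, against 0.72 without it. The median log2 difference of the 10 genes was then 0.05, against 0.23. Leaving out vehicle replicate 6 brought the median to 0.0032. The direction turned without slide 4, where 8 of the 10 estimates were under 0 with a median of -0.26, and without slide 2 the median was 0.55.

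Clec4f encodes a C-type lectin that in rodent liver marks Kupffer cells. Its signal was 5.50 at the lowest, 6.29 at the median and 6.62 at the highest among fipronil rats, against 5.05, 6.20 and 6.81 among vehicle rats. The groups overlapped over nearly their whole range, and the lowest and highest rats were both vehicle rats. The log2 difference was 0.05 (SE 0.24, adjusted p = 0.940), with a 95% interval of -0.46 to 0.57.

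Vsig4 encodes a complement receptor through which Kupffer cells capture opsonised particles. Its signal had a lowest, median and highest value of 0.18, 1.55 and 1.96 in fipronil rats, against -0.76, 1.30 and 1.97 in vehicle rats. Vehicle 6 lay well under every other rat for this gene. The log2 difference was 0.30 (SE 0.36, adjusted p = 0.715).

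Marco encodes a scavenger receptor for bacteria and particles and had the widest spread of the 10 genes, 4.81 log2 units between the lowest and the highest rat. Fipronil rats had -1.77, 1.56 and 2.36 as lowest, median and highest signal, against -2.45, 1.01 and 2.00 in vehicle rats. Fipronil 3, fipronil 4 and vehicle 6 were the 3 rats under -1. The log2 difference of 0.44 was smaller than its SE of 0.72 (adjusted p = 0.804).

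Cd163 encodes the receptor that clears complexes of haemoglobin with haptoglobin. Its signal was -1.84, -0.82 and -0.01 at the lowest, median and highest in fipronil rats, against -2.70, -0.99 and -0.43 in vehicle rats. The groups overlapped, with fipronil 6 and 8 above every vehicle rat and vehicle 6 under all others. The log2 difference was 0.27 (SE 0.34, adjusted p = 0.723), and that of the gene's other probe was 0.15.

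Cd68 encodes a lysosomal membrane protein of phagocytes. Fipronil rats had 2.25, 3.18 and 3.70 as lowest, median and highest signal, against 1.87, 2.93 and 3.63 in vehicle rats. The ranges of the groups nearly coincided. The log2 difference was 0.17 (SE 0.25, adjusted p = 0.770).

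Csf1r encodes the receptor for CSF1 and IL-34. The signal of its brightest probe was 0.28, 0.92 and 1.57 at the lowest, median and highest in fipronil rats, against -0.38, 0.77 and 1.53 in vehicle rats. Only vehicle 6 was under 0. The log2 difference was 0.19 (SE 0.25, adjusted p = 0.754). The gene's probes disagreed: another probe gave -0.22 and exceeded background on 5 fipronil and 4 vehicle arrays, and a further one was well above background on none.

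C1qa and C1qb encode chains of C1q, the recognition molecule of the classical complement pathway, which macrophages produce. C1qa had a lowest, median and highest signal of 4.30, 4.99 and 5.32 in fipronil rats, against 4.06, 4.98 and 5.69 in vehicle rats, and a log2 difference of -0.10 (SE 0.21, adjusted p = 0.850). It was the only member with an estimate under 0, and its other probe gave -0.01. C1qb had 4.95, 5.64 and 6.16 in fipronil rats, against 4.39, 5.62 and 6.22 in vehicle rats, and a log2 difference of 0.05 (SE 0.24, adjusted p = 0.942). For both genes the fipronil values lay within the range of the vehicle values.

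Cd74 encodes the invariant chain of MHC class II molecules, which presenting cells use to load peptides. Its signal was 3.28, 4.30 and 4.70 at the lowest, median and highest in fipronil rats, against 3.35, 3.61 and 4.82 in vehicle rats. In all, 6 of 8 fipronil rats were above the vehicle mean, and both the lowest and the highest rat lay on slide 2. The log2 difference was 0.30 (SE 0.26, adjusted p = 0.583). Without slide 2, on which the fipronil rats were low and the vehicle rats high, the difference was 0.85 and passed the test (adjusted p = 0.0400).

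Cd14 encodes a co-receptor that hands lipopolysaccharide to the TLR4 complex. Its signal in fipronil rats 1 to 8 was 3.90, 4.13, 4.12, 4.00, 3.04, 4.16, 4.01 and 4.16. In vehicle rats 1 to 7 it was 3.54, 3.31, 3.78, 3.36, 2.94, 3.64 and 3.38. Among them, 7 of 8 fipronil rats were above every vehicle rat, and fipronil 5, the exception, was under all vehicle rats except vehicle 5, which lay on the same slide.

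The mean Cd14 signal was 3.94 ± 0.38 in fipronil rats and 3.42 ± 0.27 in vehicle rats (SD, n = 8 and 7). The log2 difference of 0.52 (SE 0.16), a 1.43-fold ratio with a 95% interval of 1.13 to 1.82, did not pass limma's test (adjusted p = 0.135). The gene's other probe gave a log2 difference of 0.57 (adjusted p = 0.105 with every probe tested on its own). The probes correlated across rats with r = 0.90 and rho = 0.57 after group means were subtracted.

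Whether Cd14 passed depended on 1 rat. Without fipronil replicate 5 its log2 difference was 0.65 (adjusted p = 0.0108), and without slide 3, which holds that rat, it was 0.55 (adjusted p = 0.0197). Fitted together with array brightness it was 0.37 (adjusted p = 0.645). Cd14 signal and array brightness correlated across the 15 rats with r = 0.36 and rho = 0.46 (group means subtracted, permutation p = 0.160 and 0.107, 0.857 and 1 after adjustment over 20 such relations), and r was 0.46 without the 2 rats farthest in brightness.

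**Figure D1:**
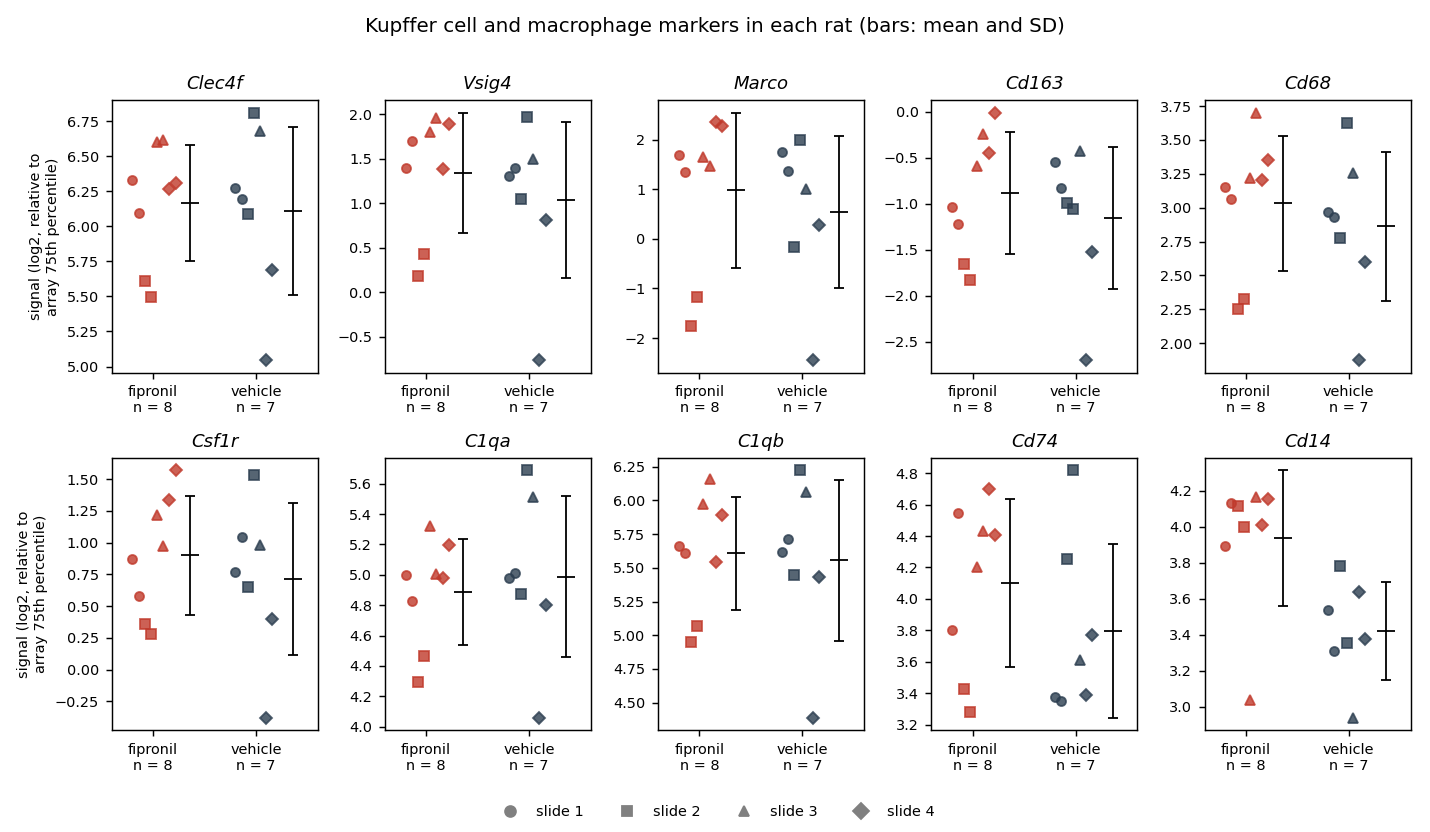
Signal of each of the 10 genes (log2 intensity minus the array's log2 75th percentile, y axis, a scale of its own in each panel) in 8 fipronil and 7 vehicle rats. Each point is a rat, its shape gives the slide, and the bars are the mean and SD. Fipronil 3 and 4 (squares) and vehicle 6 (diamond) lie lowest for the genes other than Cd14 and Cd74, and 7 of 8 fipronil rats lie above all vehicle rats for Cd14.

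Differences within slides ran in opposite directions. On slide 2 the fipronil minus vehicle difference was above 0 for 1 of the 10 genes, with a median of -0.90. On slide 4 it was above 0 for 10 of 10, with a median of 1.01. Slide 1 had 4 of 10 above 0 with a median of -0.03, and slide 3, with a single vehicle array, 8 of 10 with a median of 0.16. Each slide held 2 fipronil and 1 or 2 vehicle arrays, and no test was run within a slide.

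Marco showed the widest swing, -2.39 on slide 2 and 3.40 on slide 4. Clec4f had -0.90 and 0.92 on these slides, and C1qb -0.82 and 0.81. Cd14 was the only member with the same sign on all 4 slides, between 0.49 and 0.66. The share of all features with the same sign on all 4 slides was not computed, so this count has no background. With slide as a block, the log2 difference of Cd14 was 0.57 (adjusted p = 0.0713), and Clec4f and C1qb gave -0.01 each. Between the 4 slides, 0 of the 10 members passed limma's F test, against 2.36% of all features.

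**Figure D2:**
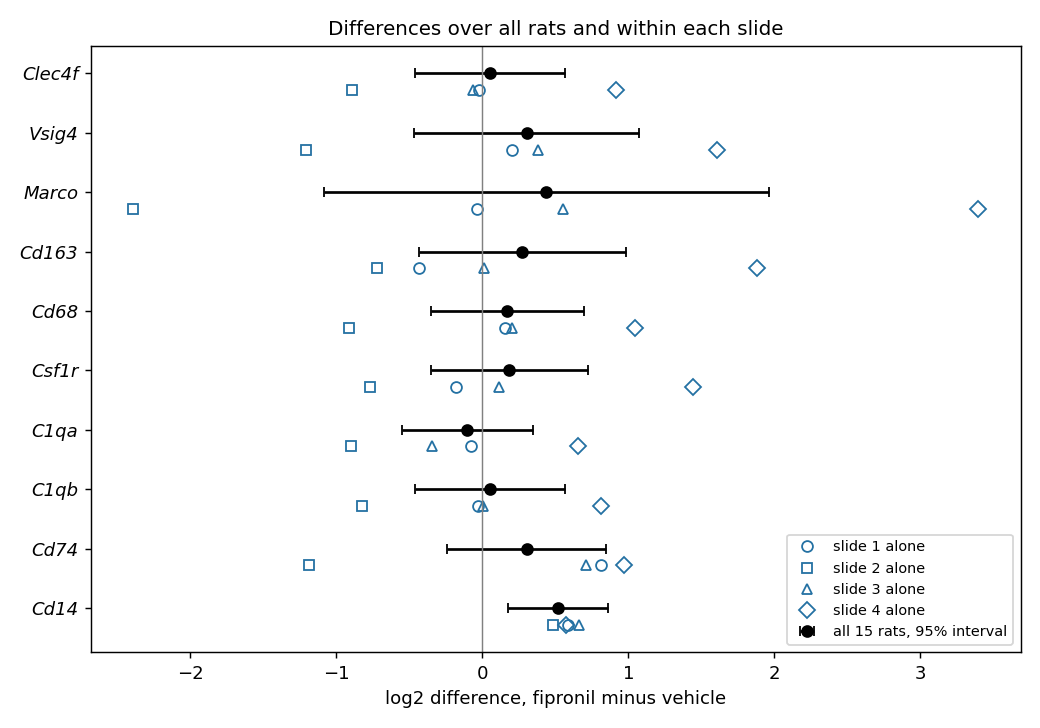
Log2 difference of the 10 genes, fipronil minus vehicle (x axis). Filled circles with bars are all 15 rats with the 95% interval, and open symbols are the differences within each slide. Only Cd14 stays on one side of 0 on all 4 slides, and its interval is the only one that excludes 0 before adjustment. The share of all features that stay on one side was not computed.

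Rats of the same group differed widely, and several genes shared the same low rats. Fipronil 3, fipronil 4 and vehicle 6 were the 3 lowest rats for each of the 8 genes other than Cd14 and Cd74, and vehicle 6 was the lowest in all 8. Averaged over the 10 genes, these rats lay -0.83, -0.77 and -1.18 from their group mean. The highest were fipronil 8, at 0.50, and vehicle 4, at 0.71. Fipronil 3 and 4 lay on slide 2 with vehicle 4, and vehicle 6 lay on slide 4 with fipronil 8. The 3 low rats were not set clearly apart in every gene: the step to the next rat was 1.9% of the gene's whole range for Csf1r and 21.1% for Marco, the smallest and the largest of the 8. The 75th percentile of intensity was 225, 214 and 176 on the arrays of fipronil 3, fipronil 4 and vehicle 6, within the range of the other arrays.

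Without these 3 rats the direction of every member was as before, and none of the 10 genes passed. Marco then gave 0.76 (SE 0.34, adjusted p = 0.297), Cd74 0.48 (SE 0.24, adjusted p = 0.336) and Vsig4 0.35 (SE 0.18, adjusted p = 0.351). The Cd14 difference was 0.52 (SE 0.20, adjusted p = 0.229).

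**Figure D3:**
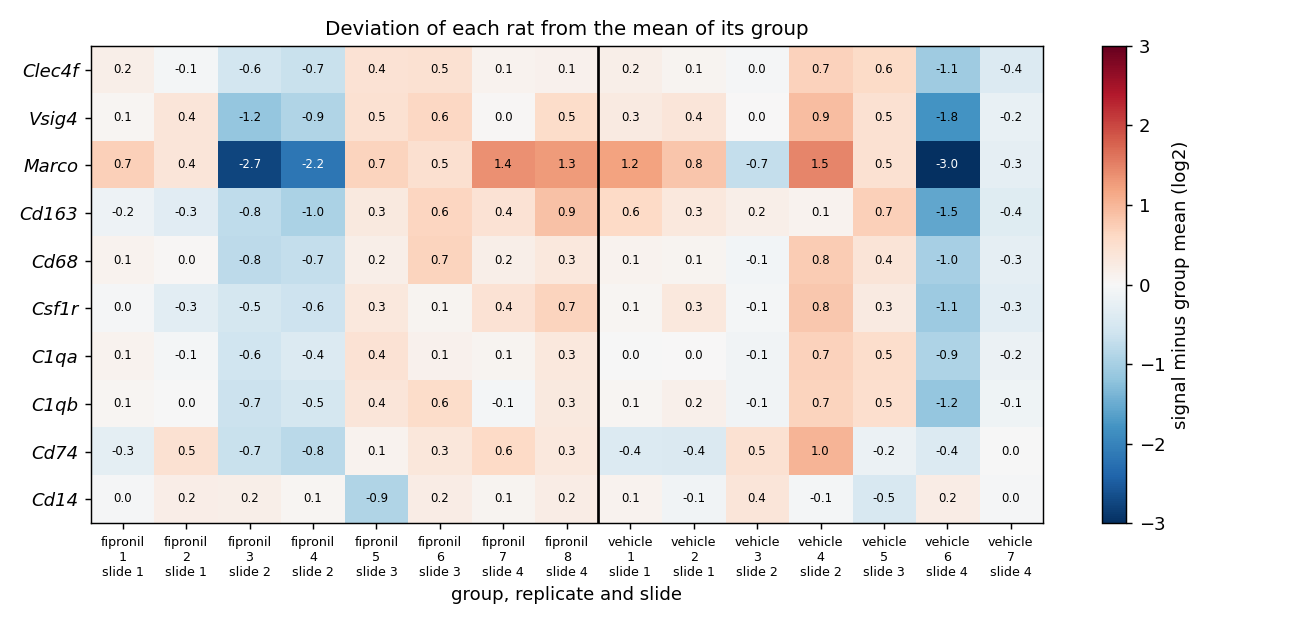
Signal of each rat minus the mean of its group (log2, colour and printed value) for the 10 genes (rows) in 8 fipronil and 7 vehicle rats (columns, with the slide). Values under the group mean run through 9 of the 10 genes in fipronil 3, fipronil 4 and vehicle 6, and Cd14 is the gene above it in each.

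Correlations between the members were taken across the 15 rats after the group means were subtracted, for all 45 pairs, with 100000 permutations of rats within groups. Of these, 35 pairs had an adjusted p under 0.05 by Pearson's r and 28 by Spearman's rho. The 28 pairs among the 8 genes other than Cd14 and Cd74 all passed by both, with r from 0.81 to 0.97 and rho from 0.66 to 0.97. Their lowest adjusted p was 7.5e-05, which rests on 1e-05, the smallest p that these permutations can give. Clec4f correlated with C1qb (r = 0.97, rho = 0.94), Cd68 (r = 0.96, rho = 0.95), C1qa (r = 0.95, rho = 0.95) and Vsig4 (r = 0.94, rho = 0.86).

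For Cd74, r with the 8 genes ran from 0.45 to 0.69. Of its 8 pairs with them, 7 passed by Pearson's r and 0 by Spearman's rho. For Cd14, r lay between -0.51 and 0.05 over its 9 pairs with all other members, and none passed. With normexp background correction and quantile normalization 1 of the 9 did, that with C1qa (r = -0.53, adjusted permutation p = 0.0346). With Clec4f, Cd14 had r = -0.43 and rho = -0.38.

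The correlations among the 8 genes were present within the fipronil rats (r from 0.73 to 0.96) and within the vehicle rats (r from 0.79 to 0.99). Subtracting slide effects as well left 35 pairs past the threshold, with r among the 8 genes from 0.77 to 0.98. For the pairs with Cd14, r then ran from -0.32 to 0.11. Leaving out, for each pair, the 2 rats farthest from the median of its first gene left 30 pairs. Without the 3 low rats 12 of the 45 pairs passed, all among the 8 genes, where r ran from 0.39 to 0.92. Clec4f then had r = 0.90 with C1qb, 0.89 with Cd68, 0.88 with C1qa, 0.50 with Marco and 0.51 with Cd163.

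Genes of the pathways around the members were compared in the same fit. Of 36 further Kupffer cell and macrophage genes, 28 were tested, and 0 rose and 0 fell. Their median log2 difference was 0.10, against -0.03 over all features tested. At an unadjusted p under 0.05 there were 2 of the 28 (background 17.6%), and the smallest p was that of Sirpa, a receptor that restrains phagocytosis (-0.25, adjusted p = 0.220). Spic, a transcription factor of red pulp macrophages, and Ccr2, a chemokine receptor of recruited monocytes, were well above background on no array.

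For lipopolysaccharide sensing with Cd14, 13 of 17 genes were tested, and 0 rose and 0 fell, with a median of 0.08. Tlr4, the signalling receptor, had 0.19 (adjusted p = 0.726), Ly96, its co-receptor MD-2, 0.45 (adjusted p = 0.560), and Lbp, the plasma protein that brings lipopolysaccharide to CD14, 0.40 (adjusted p = 0.529). The smallest p was that of Tirap, an adaptor of TLR signalling (-0.52, adjusted p = 0.0962). Ticam2, Cd180 and Irak3 were well above background on no array.

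Around Csf1r, 5 of 13 genes were tested, and 0 rose and 0 fell, with a median of -0.06. Csf1, a ligand, had -0.20 (adjusted p = 0.752), and Spi1, which encodes PU.1, 0.07 (adjusted p = 0.935). Runx1, a transcription factor of blood cell development, had the smallest p (-0.76, adjusted p = 0.167).

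In the complement list, 17 of 21 genes were tested, and 0 rose and 0 fell, with a median of -0.02. C1qc, the other chain of C1q, had 0.04 (adjusted p = 0.959). Cd59b, an inhibitor of the terminal complex, had the smallest p (0.31, adjusted p = 0.127). C3 and Serping1 were saturated on all 15 arrays, so their signals give no comparison. In all, 4 of the 17 genes were saturated on at least 1 array, and the 13 that never were had a median of 0.04.

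Of the MHC class II list, 13 of 20 genes were tested, and 0 rose and 0 fell, with a median of -0.15. RT1-Da and RT1-Db1, which encode class II chains, had 0.30 (adjusted p = 0.596) and 0.13 (adjusted p = 0.866). RT1-DMa did not share that sign, with -0.29 (adjusted p = 0.437). RT1-Bb had -0.02 with an SE of 1.16 (adjusted p = 0.995), so its sign is not determined. Its fipronil signals ran from -5.66 to 4.26, and 7 of the 8 fipronil arrays were well above background. RT1-Ba was not tested, being well above background on 1 fipronil and 5 vehicle arrays. Rfxap, a regulator of class II genes, had the smallest p (-0.29, adjusted p = 0.243).

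In the lysosome list, 18 of 20 genes were tested, and 0 rose and 0 fell, with a median of 0.02. The protease gene Ctsh had the smallest p (-0.30, adjusted p = 0.0700). In the scavenging list, 15 of 18 genes were tested, and 0 rose and 0 fell, but 8 had an unadjusted p under 0.05 (background 17.6%), and 3 of the 15 genes (Hp, Hpx and Ftl1) were saturated on all arrays. The list's median was 0.01. Lrp1, an endocytic receptor that also takes up haem bound to haemopexin, had the smallest p (-0.59, adjusted p = 0.0583).

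Of 22 genes of macrophage inflammatory output, 14 were tested, and 0 rose and 0 fell, with a median of 0.17. The chemokine gene Ccl5 had the smallest p (0.80, adjusted p = 0.151). Tnf, Il6, Il12b, Ccl7, Cxcl2, Nos2 and Ptgs2 were well above background on no array. Il1b, a cytokine gene of activated macrophages, had -0.09 (adjusted p = 0.885).

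Many further macrophage genes correlated with Clec4f. The median r with Clec4f over rats was 0.71 for the 28 further Kupffer cell and macrophage genes, of which 19 exceeded 0.5, against a median of -0.06 and 5.82% above 0.5 over 20051 features. C1qc and Aif1, a macrophage calcium-binding protein, had r = 0.97 each, and Adgre1, which encodes F4/80, 0.96. Not all did: Nr1h3, which encodes the nuclear receptor LXR-alpha, had -0.38. In the sensing list the median r was 0.22, and 4 of the 13 genes exceeded 0.5: Tlr2 with 0.92, Ly96 with 0.90, Ly86 with 0.88 and Tlr4 with 0.72. Ly96 was well above background on 5 fipronil and 2 vehicle arrays only. Tollip, an inhibitor of TLR signalling, had -0.62, Tirap -0.38 and Lbp -0.26. These values share the arrays and are given as a description.

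**Figure D4:**
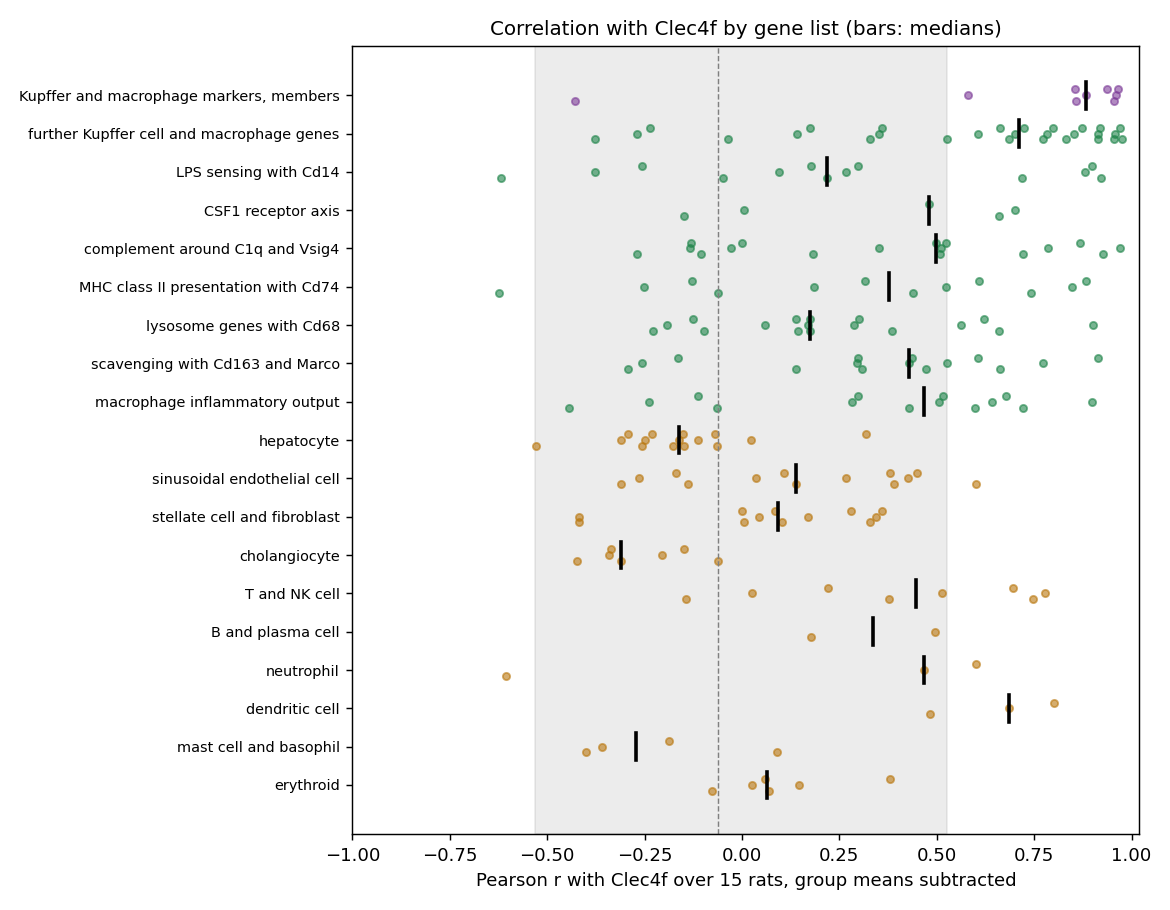
Pearson r with Clec4f over 15 rats after subtracting group means (x axis) for the tested genes of each list (rows). Each point is a gene and the bar its list's median, with members in purple, pathway lists in green and other cell types in orange. The grey band holds 90% of all features and the dashed line is their median. The bar is at 0.88 for the members, 0.71 for the further macrophage genes and 0.69 for the dendritic cell genes. That last value is the r of Irf8, which is also in the macrophage list. The bar is at 0.47 for the neutrophil genes, 0.45 for the T and NK cell genes and 0.34 for the B and plasma cell genes. For the hepatocyte genes it is at -0.16, and for the mast cell genes at -0.27.

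Markers of other cells were measured beside the members. In the hepatocyte list all 15 genes were tested, and 0 rose and 0 fell. Their median was -0.25, but 8 were saturated on at least 1 array, and the 7 that never were had a median of -0.06. An unadjusted p under 0.05 was found for 7 of the 15 (background 17.6%), of which Asgr1 alone was never saturated. The summed level of all 15 genes, in multiples of each array's 75th percentile, was 2674 to 3682 in fipronil rats, against 3298 to 5530 in vehicle rats, most of it from probes saturated on some arrays. The 7 genes never saturated summed to 573 to 760 in fipronil rats, against 696 to 989 in vehicle rats. Asgr1, a hepatocyte receptor for desialylated glycoproteins, had the smallest p (-0.39, adjusted p = 0.114). Serpina1 was among the 6 genes saturated on every array, which have no order of brightness. The median r with Clec4f was -0.16.

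Sinusoidal endothelial markers had a median above 0, as the members did. Of 15 genes 13 were tested, and 0 rose and 0 fell, with a median of 0.31 and 9 of 13 above 0, and 5 of 13 had an unadjusted p under 0.05 (background 17.6%). Their summed level was 99.8 to 189 in fipronil rats, against 80.4 to 112 in vehicle rats. Stab2, a scavenger receptor of these cells, had 0.42 (adjusted p = 0.101), and Kdr, the brightest, 0.29 (adjusted p = 0.285). The part these cells play in the members' values was not tested, and their median r with Clec4f was 0.14. The median r with Clec4f was higher for some immune lists. It was 0.69 over 3 dendritic cell genes, which is the value of Irf8, a gene that is also in the macrophage list. It was 0.47 over 3 neutrophil genes, 0.45 over 8 T and NK cell genes and 0.34 for the B and plasma cell list. For the mast cell list it was -0.27.

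Of the immune lists other than macrophages, T and NK cells had 8 of 17 genes tested, with 0 rising and 0 falling and a median of 0.12. Klrd1, an NK cell receptor, had 0.95 (adjusted p = 0.173), Zap70, the brightest, had -0.61 (adjusted p = 0.300), and Cd3e, Cd247, Cd2, Cd5 and Ncr1 were well above background on no array. Of B and plasma cell genes 2 of 10 were tested and neither passed, with a median of -0.31; the brightest was Cd22 (-0.34, adjusted p = 0.636), and Ms4a1, Jchain and Cr2 were well above background on no array. Of dendritic cell genes 3 of 10 were tested and none passed, with a median of 0.08. The smallest p was that of Irf8 (0.24, adjusted p = 0.552), Cd83 was the brightest (0.08, adjusted p = 0.851), and Xcr1, Ccr7, Zbtb46 and Siglech were well above background on no array. Of neutrophil genes 3 of 10 were tested and none passed, with a median of 0.52; Np4, the brightest, had -0.28 (adjusted p = 0.177), S100a8 0.52 (adjusted p = 0.376) and S100a9 0.55 (adjusted p = 0.292), and Mpo, Cxcr2, Ltf, Camp and Mmp8 were well above background on no array. The summed levels overlapped between the groups, at 2.50 to 4.58 in fipronil rats against 2.70 to 5.39 in vehicle rats for T and NK cells, 0.295 to 0.713 against 0.352 to 0.730 for B and plasma cells, 1.21 to 2.26 against 1.31 to 2.03 for dendritic cells, and 1.44 to 1.77 against 1.58 to 2.18 for neutrophils.

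In the mast cell list 4 of 8 genes were tested, and Hdc, which encodes histidine decarboxylase, rose (1.22, SE 0.17, adjusted p = 0.00134), while the list's median was 0.20. Hdc is also known outside mast cells, and Ms4a2 and Fcer1a, which encode chains of the IgE receptor, were well above background on no array. The list's summed level was 2.28 to 4.11 in fipronil rats, against 1.41 to 1.97 in vehicle rats. Hdc made up most of that sum, and the rest of the list summed to 0.502 to 0.792 in fipronil rats, against 0.461 to 0.704 in vehicle rats. The mast cell protease gene Mcpt1 had 0.66 (adjusted p = 0.125), Tpsb2, a tryptase gene, -0.59 (adjusted p = 0.222), and Kit, a growth factor receptor gene, -0.25 (adjusted p = 0.436). Of stellate cell and fibroblast genes 12 of 14 were tested and none passed, with a median of -0.05 and Ngfr at -0.59 (adjusted p = 0.174). Of cholangiocyte genes 7 of 10 were tested and none passed, with a median of -0.08, Epcam at 0.51 (adjusted p = 0.124) and Slc4a2, the brightest, at -0.07 (adjusted p = 0.888). Of erythroid genes 6 of 8 were tested and none passed, with a median of -0.01 and Alas2, the brightest, at -0.07 (adjusted p = 0.945). Their summed levels were 268 to 353 in fipronil rats against 313 to 411 in vehicle rats for stellate cells, 2.91 to 4.83 against 3.33 to 4.42 for cholangiocytes, and 10.5 to 32.2 against 12.1 to 63.3 for erythroid cells. Of the 12 stellate cell and fibroblast genes tested, 1 was saturated on at least 1 array, which limits that sum.

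The 5 named genes most like the mean of the 10 members across the 15 rats, group means subtracted, were sought among 9666 genes that were above background on all arrays. They were Ctss, which encodes the lysosomal protease cathepsin S (r = 0.97, rho = 0.93), Tnfaip8l2 (r = 0.97, rho = 0.96), the chemokine gene Ccl6 (r = 0.96, rho = 0.92), Casp1, the inflammatory caspase gene (r = 0.96, rho = 0.91), and Ms4a6bl1 (r = 0.95, rho = 0.87). Without the 3 low rats r was 0.84 to 0.90 for the 5 genes. None passed the comparison of fipronil with vehicle: the log2 difference was 0.04 for Ctss, 0.17 for Tnfaip8l2, 0.14 for Ccl6, 0.34 for Casp1 and 0.11 for Ms4a6bl1, with adjusted p between 0.419 and 0.968.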

How the data were processed

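Liver RNA of 15 rats was labelled with Cy3 and hybridised to single-colour Agilent rat arrays, 1 array a rat, per the labels' protocols. The deposited files give spot intensity values, background subtracted but not normalized between arrays, written by Feature Extraction 9.5.3.1, per the file headers. The authors used limma and Agilent Feature Extraction 9.5, per the submitters' processing notes. The authors' deposited table holds log2 values for 22244 probes, with column medians of 7.651 to 7.661; they ranked probes as the uncorrected median spot intensity did (Spearman correlation at least 0.99999 on each array), and the exact normalization and the choice of probes are not given in the sources used here.

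After removal of outlier spots, replicate spots were averaged, and log2 intensity was set relative to the 75th percentile of the non-control probes of its array. Probes were named through RefSeq's GRCr8 table (10768 by accession, 4998 by symbol, 3340 by synonym, 2451 otherwise; 19455 stayed unnamed), and the brightest probe stood for a gene. A feature was tested if 7 or more arrays showed it well above background, with limma 3.58.1 in R 4.3.3 (lmFit and eBayes, two-sided) at a Benjamini-Hochberg adjusted p under 0.05 over all features; the fit was tested on simulated data. SD is over rats, SE belongs to the fitted log2 difference, and 95% intervals are given. Each rat was a separate animal, per the labels.

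The rats' slides came from the array barcode. Genes named were all members, in each list those that passed or else the one with the smallest p, for other cell types also the brightest, and the 5 genes most like the members' mean; further genes were added by their role, after values were seen. Members and lists were chosen with earlier results of these data known. Alternatives were other background corrections, normalizations, filters and probe rules, blocks for slide or replicate number, array weights, brightness and Clec4f as covariates, and fits without a slide, a rat or 3 rats. Probe sequences and proteins were not used here, and some genes that this rule names are not reported here.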

Additional observations from a re-analysis of the deposited data

Results flagged for a closer look

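Each of the 10 genes was examined for a rat far from the rest of its group, 20 groups in all, where chance flags about 1 in 20 groups. Both flags fell on a lowest rat. Cd14 in fipronil replicate 5 was 3.04, while the other 7 fipronil rats lay between 3.90 and 4.16. Vsig4 in vehicle replicate 6 was -0.76, while the other 6 vehicle rats lay between 0.81 and 1.97.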

How the results depend on the processing

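The 10 log2 differences were refitted under 35 other settings, 349 values in all: 322 kept their direction and their side of the threshold, 24 changed sign and 3 passed the test that had not. A fit without the 3 low rats and one with Clec4f as a covariate were chosen after seeing the data. No sign change was of a difference that passed. Csf1r was -0.10 as the mean of its probes. Clec4f and C1qb were both -0.012 with a slide block, -0.033 and -0.032 with array weights, and -0.10 and -0.015 with array brightness as a covariate. C1qb was -0.015 without slide 3, and C1qa 0.18 without slide 2. Without slide 4, Cd163 was -0.33, Cd68 -0.16, Marco -0.66, Clec4f -0.28, Csf1r -0.28, Vsig4 -0.20 and C1qb -0.24. With single rats left out, the ranges crossed 0 for Clec4f (-0.12 to 0.17), C1qb (-0.14 to 0.16), C1qa (-0.26 to 0.014, the highest without vehicle replicate 4) and Marco (-0.060 to 0.83, the lowest without vehicle replicate 6). Members called moved to 1 without slide 2 (Cd74), and without slide 3 or fipronil replicate 5 (Cd14); leaving out single rats gave 0 to 1.

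Of all features, 175 passed in the fit reported. This became 85 with no filter on dim features, 303 with slide as a random block, 41 with the brightness covariate, 33 without slide 1, 49 without slide 4, 98 without the 3 low rats, and 89 to 284 with single rats left out. With a replicate block it was 90 and no member passed, but that fit also loses fipronil replicate 8, which has no partner, and leaving out that rat alone gave 89. Correlations of same-numbered rats were 0.15, 0.15, 0.38, 0.09, 0.08, -0.05 and 0.08. Most same-numbered rats also shared a slide, so these values cannot tell whether the numbers pair the rats. Of the 45 pairs, 12 passed without the 3 low rats. The causes were not tested. Using the median in place of the 75th percentile moved the median of all features to 0.04 and that of the members to 0.29. All 10 members were above background on every array. Saturation limits the brightest genes of several lists, among them the hepatocyte, complement, scavenging and stellate cell lists.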

Other observations

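The genes most like Cd14 across the 15 rats, sought after its departure from the other members had been seen, were not macrophage markers of the lists used here. Among 9675 named genes, group means subtracted, the 5 highest correlations were with Bmal1, a core gene of the circadian clock (r = 0.80, rho = 0.69), Ctnnal1 (r = 0.79, rho = 0.73), Clpx, which encodes a mitochondrial chaperone subunit (r = 0.77, rho = 0.85), Pdk1, which encodes a kinase that restrains pyruvate dehydrogenase (r = 0.76, rho = 0.59), and Tkfc (r = 0.76, rho = 0.58). None of the 5 passed the comparison of fipronil with vehicle; Bmal1 had a log2 difference of 0.61 (adjusted p = 0.232). These are descriptions over rats that share slides, the highest of many correlations, and they were not tested. The Cd14 values include fipronil 5, at -0.90 from its group mean.

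With Clec4f as a covariate, a fit added after the data were seen, no member passed. The SE of Cd68 was then 0.09, against 0.25 without the covariate, and its log2 difference 0.12. Clec4f is itself a member and correlated with Cd68 (r = 0.96), so the smaller SE follows from that correlation. C1qa had -0.15 (adjusted p = 0.369) and Vsig4 0.23 (adjusted p = 0.421).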
